A study of Homo sapiens with 5 samples.

Results

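The ID genes and the core genes of BMP-SMAD signalling were compared between RH4 cells with and without siRNA against circVAMP3. The set was named gene by gene for its roles, as inhibitors of myogenic transcription factors and the BMP pathway that induces them, and holds 10 genes: ID1, ID2, ID3, ID4, SMAD1, SMAD5, SMAD6, SMAD7, BMPR1A and BMPR2. Of these, 9 were among the 13822 genes with a value, and ID4 is not analysed here. RH4 is an established line used as a model of alveolar rhabdomyosarcoma, a childhood tumour of cells committed to skeletal muscle. All cultures received siRNA at a final 30 nM with a lipid reagent, fresh medium after 24 h and a further 24 h before harvest. The 3 si-SCR replicates received a control siRNA and the 2 si-circVAMP3 replicates an siRNA against the back-splicing junction of circVAMP3, a circular RNA made from exons 3 and 4 of VAMP3. circVAMP3 was targeted with 1 siRNA in 1 cell line. Sequence-specific effects of the siRNA on other RNAs, effects of lower linear VAMP3 mRNA (below) and effects of circVAMP3 loss cannot be told apart here.

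BMPs are secreted ligands that bring together type I and type II kinase receptors, and the type I receptor then phosphorylates SMAD1, SMAD5 and SMAD9, which join SMAD4 and bind regulatory DNA in the nucleus. Among the best known genes switched on in this way are the ID genes and the inhibitory SMADs, SMAD6 and SMAD7, which feed back on the receptors. ID proteins carry a helix-loop-helix domain without a DNA-binding basic region, so they bind E proteins in pairs that cannot hold DNA, and in muscle precursors they thereby restrain MYOD1 and MYOG, the factors that drive muscle differentiation.

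The siRNA is shown because it defines the comparison. Its sequence is given 5′ to 3′ as RNA, and the capitals mark the 8 bases that come from the end of exon 4 (chr1:7778118-7778169, GRCh38, plus strand), which are followed by 11 bases from the start of exon 3 (chr1:7777160-7777318).
si-circVAMP3: CAUCAUCGgugguggacauuu
The first 19 of its 21 bases matched the junction of the 211-base circle, and the linear VAMP3 transcript held no exact match to all 19. The 8 bases from exon 4 and the 11 from exon 3 are each part of that transcript too, and partial matches were not searched.

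VAMP3, the gene of the targeted circRNA, encodes a vesicle membrane protein of the synaptobrevin family. Its mRNA was at 36.4, 35.4 and 37.4 FPKM in si-SCR replicates 1, 2 and 3 and at 29.4 and 30.2 FPKM in si-circVAMP3 replicates 1 and 2, where FPKM is the number of fragments scaled to gene length and library size. Both si-circVAMP3 libraries were below all 3 si-SCR libraries, and VAMP3 mRNA fell by 18.2% of the si-SCR mean (limma log2 change -0.29 ± 0.04 SE, Benjamini-Hochberg adjusted p = 0.0051). The adjusted p was 0.0512 without si-circVAMP3 1 and lay between 0.0019 and 0.0512 over 15 alternative settings. Poly-A selection leaves circles out, so this value reads the linear mRNA and does not check how far circVAMP3 was depleted.

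The libraries held at least 26064850, 24694435 and 24583875 reads in the genes with a value for si-SCR 1, 2 and 3 and 18358442 and 28401864 for si-circVAMP3 1 and 2, as recovered from the FPKM. Each of 16 markers of rhabdomyosarcoma and myogenic cells had a value, whereas none of 5 leukocyte and none of 5 epithelial markers did. The most abundant myogenic marker was the actin gene ACTC1 in each si-SCR library and the intermediate filament gene DES in each si-circVAMP3 library. The summed level of the myogenic markers was 1480, 1515 and 1329 FPKM in the si-SCR libraries and 1112 and 1126 FPKM in the si-circVAMP3 libraries, with 6 of 15 tested called lower, none higher and 9 not called by limma, where 15.8% of all 12423 genes tested were called lower and 14.3% higher. By limma-voom 6 were lower and none higher, and none was higher at an unadjusted p under 0.05. Fibroblast markers had values for 5 of 9 genes, led by COL3A1, with COL1A2, LUM, THY1 and POSTN lacking one, and summed to 35.7, 33 and 33.5 FPKM against 31.5 and 29 FPKM. Of 5 endothelial markers only PECAM1 had a value, at most 0.153 FPKM. The part of these marker levels in the results below was not tested, and in bulk RNA fewer cells of a state and less RNA per cell cannot be told apart.

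The library si-SCR 3 stood somewhat apart from the other controls. Across the 12423 genes tested, Pearson's r of log2 levels was 0.9963 between si-SCR 1 and 2 but 0.9921 and 0.9937 between si-SCR 3 and each of them, against 0.9958 for the si-circVAMP3 pair and 0.9826 to 0.9862 across the groups; genes are not independent replicates. In si-SCR 3 the 3097 genes richest in G and C (55.9% to 74.2% of the transcript) had a median log2 difference of -0.173 from the mean of si-SCR 1 and 2, against 0.052 for the 3097 poorest. ID1, ID3, SMAD6 and SMAD7 lie in that GC-rich class, so their values are also given without si-SCR 3 and with each GC class centred within each library; the centring was added, and these settings were picked for the text, after the data were seen.

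Of the 9 genes tested, 6 passed the threshold of adjusted p under 0.05: ID1, ID2, ID3, SMAD1 and SMAD7 were higher in si-circVAMP3 cells, BMPR2 was lower, and SMAD5, SMAD6 and BMPR1A were not called. Without si-circVAMP3 1 only ID3, SMAD7 and BMPR2 were called, without si-circVAMP3 2 only ID3 and BMPR2, and SMAD1 was under the cutoff of the study, an absolute log2 change over 0.58. Of all 12423 genes tested 30.1% were called, 14.3% higher and 15.8% lower. These shares depend on the libraries and the cutoff, since the 3737 calls went down to 1304 without si-circVAMP3 1, to 1276 without si-circVAMP3 2 and to 717 with that cutoff. The median log2 change was 0.43 over the 9 genes and 0.01 over all genes tested, and the median absolute change was 0.58 and 0.17. The groups did not overlap for 8 of the 9 genes and for 58.4% of all genes tested. SMAD7 passed the filter on low values (0.5 FPKM in at least 2 libraries) through the si-circVAMP3 libraries alone, so a higher value there was built into its being tested, and no count or median over these genes is support for a direction.

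**Figure D1:**
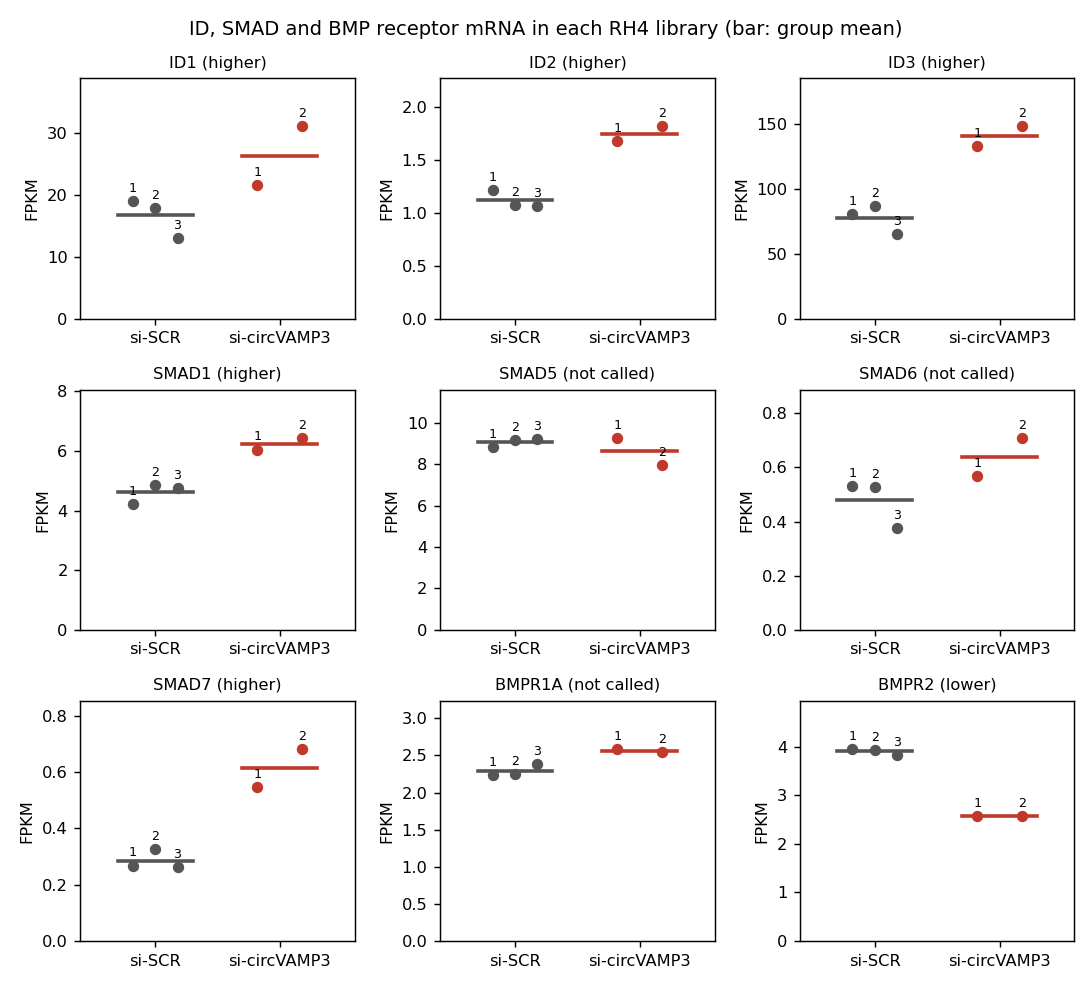
FPKM of the 9 genes in each library (vertical axes, each from 0), with si-SCR libraries in grey, si-circVAMP3 libraries in red, replicate numbers above the points and bars at the group means. The groups are apart for every gene drawn but SMAD5, and BMPR2 is the gene drawn whose si-circVAMP3 libraries were called lower.

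ID1, ID2 and ID3 encode the inhibitors of E proteins. ID1 lies at chr20:31605283-31606515 on the plus strand, ID2 at chr2:8678845-8684461 on the plus strand and ID3 at chr1:23557926-23559501 on the minus strand (GRCh38, GENCODE). Their promoters are shown because these genes were each called higher and are classic direct targets of SMAD proteins. The call of ID1 was lost in 7 of 15 settings. Each window runs from 250 bases before to 50 bases after the start (RefSeq, GRCh38.p14), at chr20:31605039-31605338 (plus), chr2:8681806-8682105 (plus) and chr1:23559452-23559751 (minus). Capitals mark the SMAD box GTCT and the GC-rich element GGAGCC, searched on both strands, so that they also appear as AGAC and GGCTCC.
ID1: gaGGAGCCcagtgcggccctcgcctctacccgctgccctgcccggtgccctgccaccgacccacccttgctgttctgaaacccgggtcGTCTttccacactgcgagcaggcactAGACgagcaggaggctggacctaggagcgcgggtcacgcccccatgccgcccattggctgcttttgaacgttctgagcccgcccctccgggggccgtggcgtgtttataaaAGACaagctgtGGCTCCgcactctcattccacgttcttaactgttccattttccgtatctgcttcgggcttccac
ID2: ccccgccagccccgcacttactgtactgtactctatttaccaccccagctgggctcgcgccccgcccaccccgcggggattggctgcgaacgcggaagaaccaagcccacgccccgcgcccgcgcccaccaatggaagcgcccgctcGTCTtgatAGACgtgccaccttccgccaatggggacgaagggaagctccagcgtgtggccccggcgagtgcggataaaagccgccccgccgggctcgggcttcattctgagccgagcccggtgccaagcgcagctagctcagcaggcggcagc
ID3: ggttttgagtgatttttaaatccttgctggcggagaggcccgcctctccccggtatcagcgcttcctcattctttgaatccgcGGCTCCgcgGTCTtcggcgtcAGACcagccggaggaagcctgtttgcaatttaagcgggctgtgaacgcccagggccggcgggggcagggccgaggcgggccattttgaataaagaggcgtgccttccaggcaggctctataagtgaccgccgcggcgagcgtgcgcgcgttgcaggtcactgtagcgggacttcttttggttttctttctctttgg
The ID1 window held 3 SMAD boxes and 2 GGAGCC elements, the ID2 window 2 and 0, and the ID3 window 2 and 1. The palindrome GTCTAGAC (which holds the SMAD box on both strands) and the element GGCGCC were in none of these 3 windows. Among 35116 promoter windows of the same length, 84% held GTCT, 36% GGAGCC, 19.2% GGCGCC and 0.202% GTCTAGAC. A match of these letters is a description and not a binding site. Sequence outside the windows was not searched, and a part of SMAD proteins in the changes of these genes was not tested.

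ID3 was by far the most abundant ID mRNA. It was at 80.3, 86.9 and 65.0 FPKM in si-SCR 1, 2 and 3 and at 133 and 148 FPKM in si-circVAMP3 1 and 2. Both si-circVAMP3 libraries were well above all 3 controls, of which si-SCR 3 was the lowest. The means were 77.4 ± 11.2 (SD, n = 3) and 141 ± 11.1 FPKM (SD, n = 2), a ratio of 1.82. ID3 rose by a log2 change of 0.87 (95% confidence interval 0.58 to 1.16, limma, Benjamini-Hochberg adjusted p = 0.0038), on the scale of log2(FPKM + 0.1) used throughout. Without si-SCR 3 the change was 0.75, with GC classes centred it was 0.81, and ID3 was called under all 15 alternative settings.

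ID1, whose protein has the same structure, followed with a wider spread. Its level was 19.1, 17.9 and 13.1 FPKM in si-SCR 1, 2 and 3 and 21.7 and 31.1 FPKM in si-circVAMP3 1 and 2. The groups did not overlap, but si-circVAMP3 1 was closer to si-SCR 1 than to the other si-circVAMP3 library. The means were 16.7 ± 3.16 (SD, n = 3) and 26.4 ± 6.63 FPKM (SD, n = 2), and the log2 change of 0.65 had a 95% confidence interval from 0.18 to 1.12 (limma, Benjamini-Hochberg adjusted p = 0.047). Its call was lost in 7 of 15 settings, more than that of any other gene of the set: the change was 0.49 without si-SCR 3 (adjusted p = 0.0509), 0.71 without si-SCR 2 (0.0864), 0.91 without si-circVAMP3 1 (0.0537) and 0.40 without si-circVAMP3 2 (0.265), and over 15 settings the limma adjusted p ran from 0.0165 to 0.265. It was also not called after rescaling to TPM (0.0524), without the variance trend (0.0829) or with the replicate number as a block (0.0641), and with GC classes centred it was 0.59 (0.0365).

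ID2, the inhibitor also known to bind the retinoblastoma protein, was scarce in RH4 cells. It was at 1.22, 1.08 and 1.07 FPKM in si-SCR 1, 2 and 3, from 72, 60 and 59 reads, and at 1.68 and 1.82 FPKM in si-circVAMP3 1 and 2, from 69 and 116 reads. All 3 controls were close together and below both si-circVAMP3 libraries. ID2 rose from a mean of 1.12 ± 0.083 (SD, n = 3) to 1.75 ± 0.0975 FPKM (SD, n = 2), a log2 change of 0.60 (95% confidence interval 0.34 to 0.85, limma, Benjamini-Hochberg adjusted p = 0.0086). The adjusted p was 0.0503 without si-circVAMP3 1 and 0.074 without si-circVAMP3 2, within a range of 0.00651 to 0.074 over 15 settings, and the change was 0.37 with a pseudocount of 1.

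Summed over ID1, ID2 and ID3, ID mRNA was at 101, 106 and 79.2 FPKM in the si-SCR libraries and at 156 and 181 FPKM in the si-circVAMP3 libraries. ID3 made up 79.8% to 85% of the sum in each library, so the total follows ID3. The E proteins TCF3, TCF4 and TCF12, the partners that ID proteins hold, summed to 73.4, 70 and 64.4 FPKM in si-SCR 1, 2 and 3 and to 66.8 and 65.8 FPKM in si-circVAMP3 1 and 2. The E-protein sums overlapped through si-SCR 3, in which TCF3 was at 26.4 FPKM against 37.1 and 33.4 FPKM in si-SCR 1 and 2, and the sums of si-SCR 1 and 2 were above both si-circVAMP3 sums. The ID sums did not overlap. The ratio of ID to E-protein mRNA was 1.37, 1.51 and 1.23 in the controls and 2.34 and 2.75 after si-circVAMP3, given without a test and for mRNA and not protein.

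**Figure D2:**
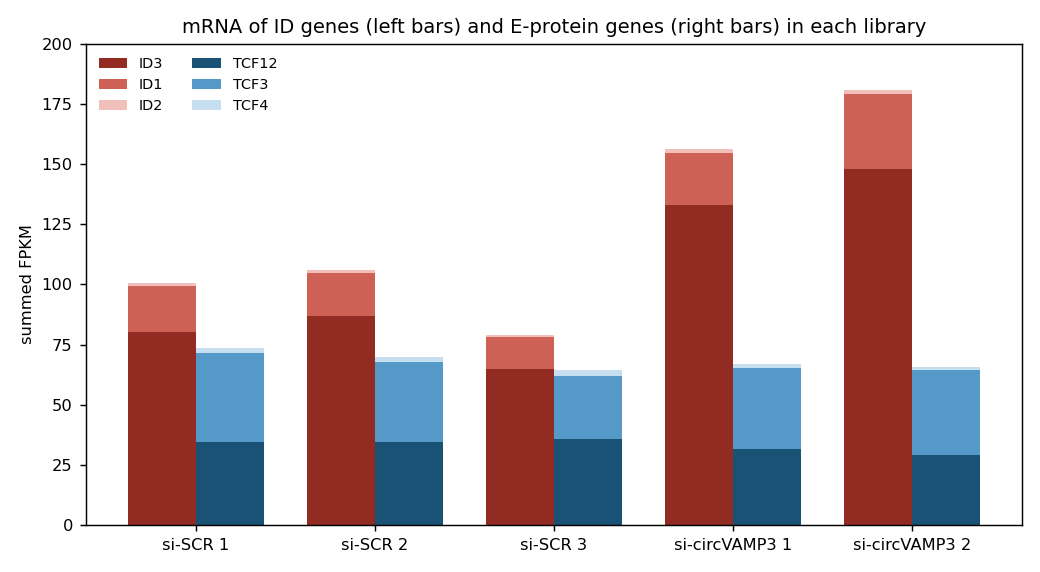
Stacked bars of FPKM (vertical axis, from 0) in each of the 5 libraries, with the ID genes in red on the left and the E-protein genes in blue on the right of each pair. ID3 makes up most of the ID bar in each library, and the ID bars of the si-circVAMP3 libraries reach 156 and 181 FPKM against at most 106 FPKM in the si-SCR libraries.

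SMAD1 and SMAD5 are the receptor-activated SMADs that carry the BMP signal to the nucleus. SMAD1 (chr4:145481194-145559176) was at 4.21, 4.87 and 4.75 FPKM in si-SCR 1, 2 and 3 and at 6.05 and 6.45 FPKM in si-circVAMP3 1 and 2. The lower si-circVAMP3 library was above the highest control. The mean of SMAD1 went from 4.61 ± 0.354 (SD, n = 3) to 6.25 ± 0.283 FPKM (SD, n = 2), a log2 change of 0.43 (95% confidence interval 0.24 to 0.63, limma, Benjamini-Hochberg adjusted p = 0.011). The adjusted p was 0.0559 without si-circVAMP3 1 and 0.0869 without si-circVAMP3 2, within 0.00267 to 0.0869 over 15 settings.

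SMAD5 (chr5:136132845-136188747) was the more abundant of the pair and did not pass the test. Its level was 8.84, 9.16 and 9.23 FPKM in the si-SCR libraries and 9.29 and 7.95 FPKM in the si-circVAMP3 libraries, which held both the highest and the lowest of the 5 values. The log2 change of SMAD5 was -0.08 (95% confidence interval -0.26 to 0.10, limma, Benjamini-Hochberg adjusted p = 0.48), and it was 0.03 without si-circVAMP3 2. Whether SMAD1 and SMAD5 responded differently was not tested. SMAD9, the other SMAD activated by BMP receptors, was at 4.2 FPKM on average in both groups (log2 change 0.00 ± 0.15 SE, limma adjusted p = 0.99), and its sign turned in 3 of 15 settings. None of SMAD2, SMAD3, SMAD4 and SMAD9 was called by limma or limma-voom or had an unadjusted p under 0.05, and the median log2 change was 0.01 over these 4 genes.

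SMAD7 and SMAD6 are the inhibitory SMADs, which block receptor-activated SMADs and guide ubiquitin ligases to the receptors. SMAD7 (chr18:48919853-48950965, minus strand) was low, at 0.268, 0.326 and 0.263 FPKM from 36, 41 and 33 reads in si-SCR 1, 2 and 3 and at 0.547 and 0.683 FPKM from 51 and 99 reads in si-circVAMP3 1 and 2. Every si-SCR library was under the 0.5 FPKM of the filter and both si-circVAMP3 libraries were above it. SMAD7 rose from 0.286 ± 0.035 (SD, n = 3) to 0.615 ± 0.0964 FPKM (SD, n = 2), a ratio of 2.15 and a log2 change of 0.89 (95% confidence interval 0.48 to 1.30, limma, Benjamini-Hochberg adjusted p = 0.011). At this level the size depends on the pseudocount, with changes of 0.50 and 0.33 at pseudocounts of 0.5 and 1 and of 1.13 with limma-voom on recovered reads, and without si-circVAMP3 2 it was 0.75 (limma adjusted p = 0.0845, range 0.00401 to 0.0845 over 14 settings). Without si-SCR 3 the change was 0.85, and with GC classes centred it was 0.83.

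SMAD6 (chr15:66702236-66782849) was at 0.53, 0.528 and 0.375 FPKM in si-SCR 1, 2 and 3 and at 0.568 and 0.71 FPKM in si-circVAMP3 1 and 2. The groups did not overlap, but si-circVAMP3 1 was only just above si-SCR 1 and 2, and si-SCR 3 was the lowest. The log2 change of 0.36 had a 95% confidence interval from -0.09 to 0.81 (limma, Benjamini-Hochberg adjusted p = 0.19) and SMAD6 was not called. It was 0.22 without si-SCR 3 and 0.29 with GC classes centred. The SMAD6 promoter window (chr15:66701986-66702285) was the only one of those searched for the 10 genes with a match to the palindrome GTCTAGAC, 1 in number.

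BMPR2 is the type II receptor that binds BMPs and activates the type I receptors, among them BMPR1A. BMPR2 (chr2:202376327-202567751) was at 3.96, 3.93 and 3.84 FPKM in si-SCR 1, 2 and 3 and at 2.57 and 2.58 FPKM in si-circVAMP3 1 and 2. Within each group the libraries were nearly equal, and the groups were far apart. BMPR2 fell by 34.2% of the si-SCR mean, from 3.91 ± 0.0617 (SD, n = 3) to 2.57 ± 0.00572 FPKM (SD, n = 2), with a log2 change of -0.58 (95% confidence interval -0.74 to -0.43, limma, Benjamini-Hochberg adjusted p = 0.0019). It was called lower under all 15 alternative settings, with changes from -0.61 to -0.46. Its change lay only just beyond the study's cutoff of 0.58 before rounding, and 4 of the 15 settings left it short of that cutoff. Its direction was opposite to that of the ID genes, SMAD1 and SMAD7.

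BMPR1A (chr10:86756596-86932825), a type I receptor for BMPs, was at 2.23, 2.25 and 2.38 FPKM in si-SCR 1, 2 and 3 and at 2.59 and 2.54 FPKM in si-circVAMP3 1 and 2. The si-circVAMP3 libraries were above the controls by a small margin. The log2 change was 0.16 (95% confidence interval -0.03 to 0.35, limma, Benjamini-Hochberg adjusted p = 0.17), and BMPR1A was not called. Processed pseudogenes of BMPR1A and of ID2 are annotated elsewhere in the genome, so reads of these genes could be split or lost where the copies match.

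**Figure D3:**
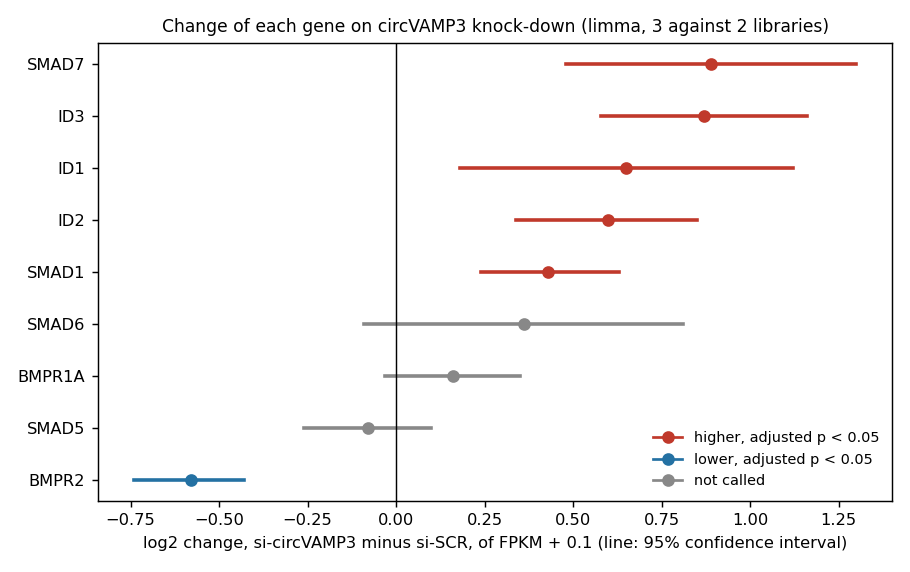
The limma log2 change of each gene, si-circVAMP3 minus si-SCR, on the scale of log2(FPKM + 0.1) (horizontal axis), with lines for the 95% confidence interval from 3 si-SCR and 2 si-circVAMP3 libraries. The intervals of SMAD6, BMPR1A and SMAD5 cross 0, that of ID1 reaches down to 0.18, and that of BMPR2 lies wholly below 0.

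By level, the order in si-SCR cells was ID3, ID1, SMAD5, SMAD1, BMPR2, BMPR1A, ID2, SMAD6 and SMAD7, as mean FPKM from 77.4 to 0.286. Neighbours in this order did not overlap in the si-SCR libraries. In si-circVAMP3 cells SMAD1 stayed below SMAD5, while BMPR2 and BMPR1A met, at means of 2.57 ± 0.00572 and 2.56 ± 0.0322 FPKM (SD, n = 2), so that the receptors no longer differed beyond their spread. SMAD6 and SMAD7 overlapped as well, at 0.568 and 0.71 FPKM and at 0.547 and 0.683 FPKM.

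For BMPR2 and ID3, which had the smallest adjusted p in the set, the most similar profiles were sought among all genes tested, as the root-mean-square difference between log2 profiles centred on their mean over the 5 libraries. Nearest to BMPR2 was YWHAQ, a 14-3-3 protein gene, with a difference of 0.0138 and levels of 106, 107 and 103 FPKM in the si-SCR and 71 and 71.2 FPKM in the si-circVAMP3 libraries. FYN, a SRC-family kinase gene (0.0181), and L3HYPDH (0.0187) came next. Nearest to ID3 were SNED1 (0.0497), KCNJ12, a potassium channel gene (0.0707), and TIGD3 (0.0858). These are likenesses over 5 libraries of 1 contrast.

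The other genes of the pathway were taken in 9 lists by role, which together held 94 tested genes, 16 of them called higher and 21 lower (17% and 22.3%, against 14.3% and 15.8% of all genes tested). Without si-circVAMP3 1 these counts were 9 and 9, and without si-circVAMP3 2 they were 7 and 9. The counts of each list below are to be read against those shares of all genes, and no list was tested as a set. Among ligands of the BMP and GDF families, 8 of 19 had a value, 7 were tested, 3 were lower, none was higher and 4 were not called, with a median log2 change of -0.07. None was higher at an unadjusted p under 0.05 or by limma-voom either. BMP5 fell from a mean of 21.9 to 16.7 FPKM (log2 change -0.39 ± 0.05 SE, limma adjusted p = 0.0038) and BMP8B from 4.92 to 3.04 FPKM (-0.67 ± 0.09, adjusted p = 0.0039). Myostatin (MSTN), a brake on muscle growth that signals through activin receptors, fell from 27.3 to 22.8 FPKM (-0.26 ± 0.05, limma adjusted p = 0.015). The MSTN call was lost without si-SCR 2 (adjusted p = 0.0503), si-circVAMP3 1 (0.105) or si-circVAMP3 2 (0.0725), within a limma range of 0.00974 to 0.105 over 15 settings.

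Of 6 tested TGF-beta and activin ligands 1 was higher, 1 lower and 4 not called, with a median of 0.30. TGFB3 rose from 0.727 to 1.04 FPKM (0.46 ± 0.11, limma adjusted p = 0.023) and INHBE, an activin chain, fell from 3.68 to 2.70 FPKM (-0.43 ± 0.09, adjusted p = 0.014). TGFB1, the most abundant of the list, was at 12.3 and 13.1 FPKM (0.09 ± 0.10, adjusted p = 0.53) and its change was -0.02 without si-circVAMP3 2. The TGFB3 call was lost without si-SCR 2 (limma adjusted p = 0.072), si-circVAMP3 1 (0.116) or si-circVAMP3 2 (0.108) and with the replicate block (0.0657), and the INHBE call without si-circVAMP3 1 (0.0654) or si-circVAMP3 2 (0.0992), within ranges of 0.00625 to 0.116 over 14 settings and 0.00558 to 0.0992 over 15.

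Extracellular and membrane modulators of BMP signalling split, with 3 of 9 tested genes higher, 3 lower and 3 not called, and a median of 0.08. BAMBI, a decoy receptor without a kinase domain that is itself a BMP target, was at 2.47, 2.53 and 2.38 FPKM in si-SCR 1, 2 and 3 and at 4.06 and 4.38 FPKM in si-circVAMP3 1 and 2. Its groups were far apart, and it rose by a log2 change of 0.76 ± 0.08 SE (limma adjusted p = 0.0013). FST, which encodes the activin and BMP trap follistatin, rose from a mean of 3.17 to 5.40 FPKM (0.76 ± 0.12, limma adjusted p = 0.0059), and FSTL3, a related trap, from 9.90 to 13.0 FPKM (0.39 ± 0.10, adjusted p = 0.025). TWSG1, a BMP-binding modulator, fell from 11.1 to 9.18 FPKM (-0.27 ± 0.07, limma adjusted p = 0.023). Calls were lost without si-circVAMP3 1 for FST (limma adjusted p = 0.0548) and FSTL3 (0.0687), without si-circVAMP3 2 for FSTL3 (0.16) and TWSG1 (0.14), without si-SCR 2 for FSTL3 (0.0716) and TWSG1 (0.0776), and with the replicate block for FSTL3 (0.0546) and TWSG1 (0.0593). Over 15 settings the ranges were 0.00177 to 0.0548 for FST, 0.00786 to 0.16 for FSTL3 and 0.0116 to 0.14 for TWSG1.

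Among the receptors and co-receptors other than BMPR1A and BMPR2, 12 were tested, 3 were lower, 1 higher and 8 not called, with a median of -0.01. ACVR2B, a type II receptor shared by activins, myostatin and some BMPs, was at 4.64, 4.70 and 4.82 FPKM in si-SCR 1, 2 and 3 and at 3.33 and 3.60 FPKM in si-circVAMP3 1 and 2. Like BMPR2 it was lower in both si-circVAMP3 libraries (-0.44 ± 0.07, limma adjusted p = 0.0057). TGFBR2, the type II receptor for TGF-beta, fell from 1.48 to 1.04 FPKM (-0.47 ± 0.10, limma adjusted p = 0.016), and HJV, a BMP co-receptor of muscle and liver, from 4.20 to 2.39 FPKM (-0.78 ± 0.13, adjusted p = 0.0072). TGFBR3, the co-receptor betaglycan, rose from 1.64 to 2.23 FPKM (0.42 ± 0.11, limma adjusted p = 0.031), while TGFBR1, the most abundant receptor of the list, was at 35.8 and 34.7 FPKM (-0.04 ± 0.04, adjusted p = 0.48). Without si-circVAMP3 1 the limma adjusted p was 0.0526 for ACVR2B, 0.0617 for HJV, 0.0581 for TGFBR2 and 0.185 for TGFBR3, in each of ACVR2B, HJV and TGFBR3 the highest over 15 settings, and the lowest were 0.000677, 0.00263 and 0.0124. TGFBR2 and TGFBR3 also missed the threshold without si-circVAMP3 2 (0.104 and 0.0908) and without si-SCR 2 (0.0636 and 0.0925), TGFBR3 also with the replicate block (0.0538), and the limma adjusted p of TGFBR2 began at 0.00748.

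**Figure D4:**
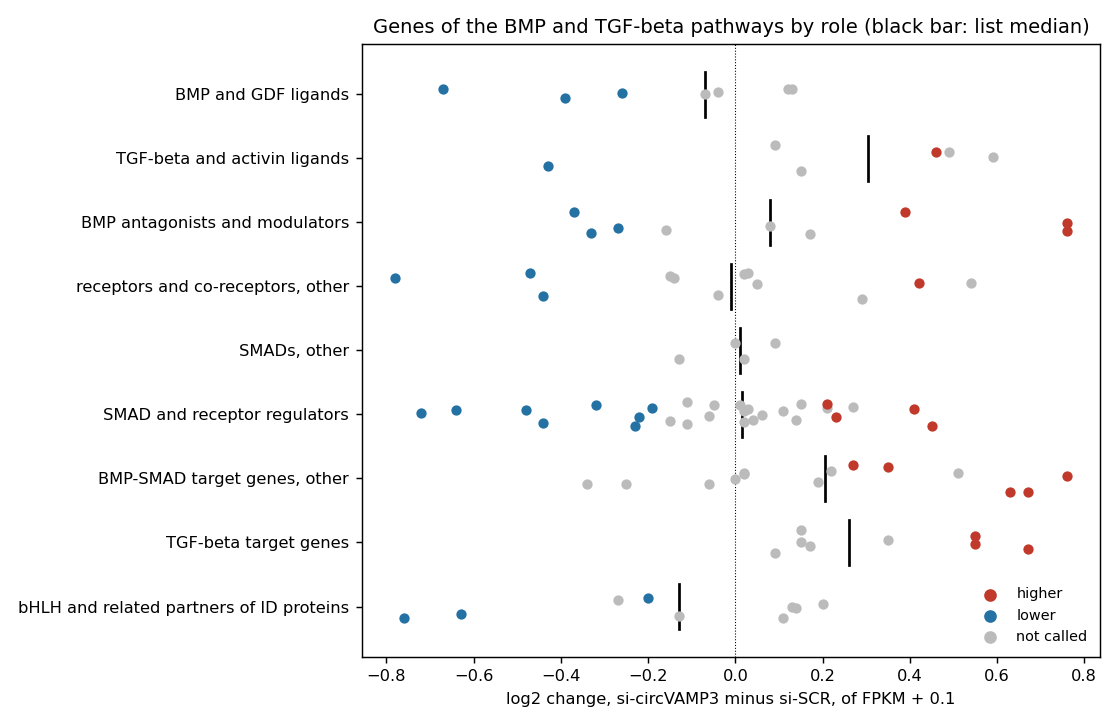
Log2 change, si-circVAMP3 minus si-SCR, of FPKM + 0.1 (horizontal axis) for each tested gene of 9 lists (vertical axis), in red where called higher, blue where called lower and grey where not called, with a black bar at each list's median. No gene of the BMP and GDF ligand list or of the bHLH partner list is red, and no gene of the BMP-SMAD or TGF-beta target lists is blue, although limma-voom called 1 BMP-SMAD target lower.

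Of 28 tested regulators that tune SMADs and receptors, 4 were higher, 8 lower and 16 not called, with a median of 0.01. This is 14.3% higher and 28.6% lower, against 14.3% and 15.8% of all genes tested. By limma-voom 6 were higher and 8 lower, and at an unadjusted p under 0.05 there were 7 higher and 8 lower. MAP3K7 (TAK1), the kinase of the SMAD-independent branch, was at 38.6, 41.4 and 40.7 FPKM in si-SCR 1, 2 and 3 and at 24.5 and 24.3 FPKM in si-circVAMP3 1 and 2. The groups were widely separated and MAP3K7 fell by 39.4% of the si-SCR mean (log2 change -0.72 ± 0.05 SE, limma adjusted p = 3.2e-04). The small phosphatases CTDSP1 and CTDSP2, which act on SMADs, moved in opposite directions: CTDSP1 fell from 21.2 to 15.2 FPKM (-0.48 ± 0.06, limma adjusted p = 0.0019) and CTDSP2 rose from 36.3 to 48.2 FPKM (0.41 ± 0.04, adjusted p = 0.0015). TGIF1, a SMAD corepressor, rose from 9.01 to 12.3 FPKM (0.45 ± 0.07, limma adjusted p = 0.0046). STRAP, which binds SMAD7 and receptors, rose from 158 to 183 FPKM (0.21 ± 0.04, limma adjusted p = 0.0086) and missed the threshold without si-circVAMP3 1 (0.0512) or si-circVAMP3 2 (0.0794), within 0.00442 to 0.0794 over 15 settings.

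Of the BMP-SMAD target genes other than the ID genes and inhibitory SMADs, 14 were tested, 5 were higher, none was lower and 9 were not called, with a median of 0.20. At an unadjusted p under 0.05, 2 were lower, and by limma-voom 1 was. BAMBI was 1 of the 5. TBX3, a T-box factor, rose from 2.60 to 4.18 FPKM (0.67 ± 0.10, limma adjusted p = 0.0046), and the homeobox genes MSX1 and MSX2, which hold back differentiation in several lineages, rose from 1.24 to 1.97 FPKM (0.63 ± 0.12, adjusted p = 0.011) and from 12.2 to 14.7 FPKM (0.27 ± 0.05, adjusted p = 0.012). SNAI1, the most abundant of the list, was at 16.3 and 15.6 FPKM (-0.06 ± 0.06, limma adjusted p = 0.51). Without si-circVAMP3 2 the limma adjusted p was 0.0813 for MSX1 and 0.0986 for MSX2, the highest over 15 settings, from 0.00848 and 0.00389. Among 8 tested TGF-beta targets 3 were higher, none lower (also at an unadjusted p under 0.05 and by limma-voom) and 5 not called, with a median of 0.26.

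The TGF-beta targets that rose act in cell cycle arrest, matrix and SMAD control. CDKN1A, the cyclin-dependent kinase inhibitor p21, rose from 10.8 to 17.2 FPKM (0.67 ± 0.08, limma adjusted p = 0.0024), FN1, fibronectin, from 72.1 to 105 FPKM (0.55 ± 0.08, adjusted p = 0.0041), and PMEPA1, which holds back SMAD activation, from 5.10 to 7.49 FPKM (0.55 ± 0.08, adjusted p = 0.0051). The PMEPA1 call was lost without si-circVAMP3 2 (limma adjusted p = 0.0534, from 0.000982 over 15 settings). CDKN1A is also a target of other pathways.

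Among 9 tested bHLH and related partners of ID proteins, none was higher (also at an unadjusted p under 0.05 and by limma-voom), 3 were lower and 6 were not called, with a median of -0.13. MYOG, the myogenic factor of terminal differentiation, was at 175, 179 and 149 FPKM in si-SCR 1, 2 and 3 and at 101 and 96.6 FPKM in si-circVAMP3 1 and 2. Both si-circVAMP3 libraries were far below every control, and MYOG fell by 41.2% of the si-SCR mean (log2 change -0.76 ± 0.08 SE, limma adjusted p = 0.0016). MYOD1, chosen here after its values were seen as the factor that acts before MYOG, was at 115, 105 and 84.3 FPKM and at 106 and 127 FPKM, and its groups overlapped (0.20 ± 0.14, limma adjusted p = 0.32). The change of MYOD1 was 0.07 without si-SCR 3, 0.33 without si-circVAMP3 1 and 0.07 without si-circVAMP3 2. Of the E proteins, TCF4 fell from 2.19 to 1.38 FPKM (-0.63 ± 0.10, limma adjusted p = 0.0054) and TCF12 from 34.8 to 30.4 FPKM (-0.20 ± 0.05, adjusted p = 0.026), while TCF3 was at 32.3 and 34.6 FPKM and was not called (0.11 ± 0.13, adjusted p = 0.56; -0.03 without si-SCR 3). Without si-circVAMP3 2 the limma adjusted p was 0.0504 for TCF4 and 0.169 for TCF12, the highest over 15 settings, from 0.000305 and 0.0119, and TCF12 also missed the threshold without si-SCR 2 (0.0713), without si-circVAMP3 1 (0.0546), without the variance trend (0.0645) and with the replicate number as a block (0.0601).

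**Figure D5:**
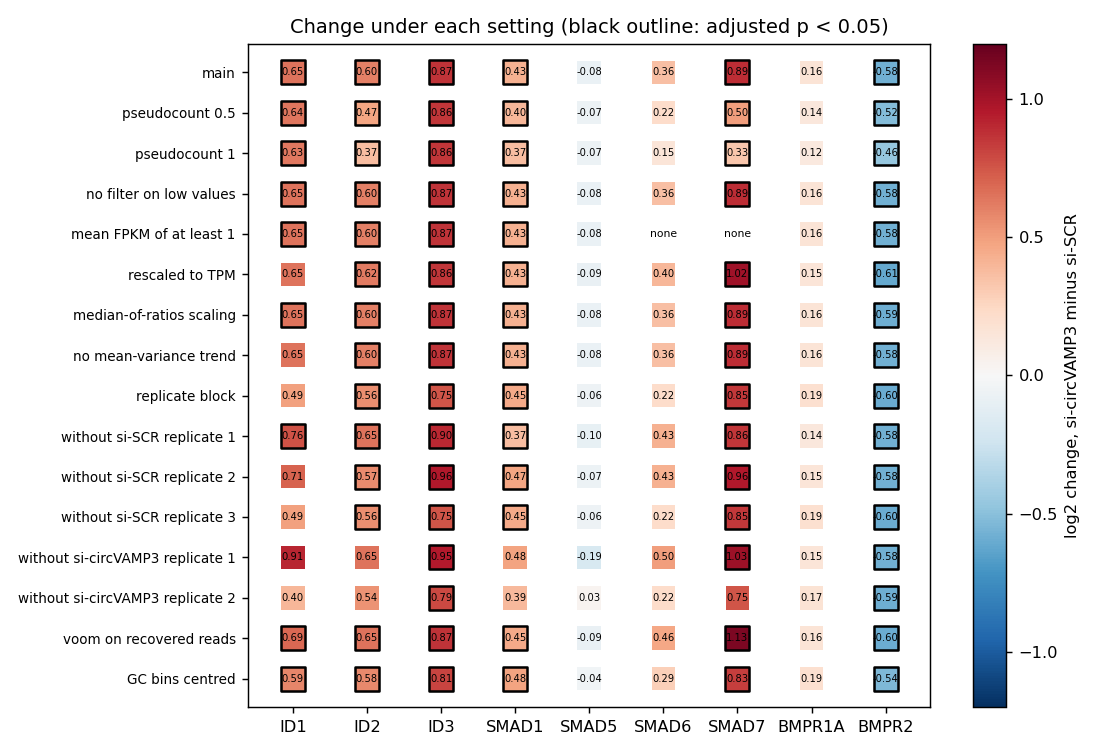
Log2 change of each of the 9 genes (horizontal axis) under the setting used in the text and 15 alternatives (vertical axis), as colour and number, with a black outline where adjusted p was under 0.05 and the word none where a gene was not tested. ID3 and BMPR2 are outlined under every setting drawn, SMAD5, SMAD6 and BMPR1A under none, and ID1 lacks its outline under 7.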

How the data were processed

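Paired-end TruSeq Stranded mRNA libraries came from 3 si-SCR and 2 si-circVAMP3 biological replicates. The authors demultiplexed with bcl2fastq 2.20.0.422, trimmed with Trimmomatic, aligned to GRCh38 with STAR 2.5.2b, counted strand-specifically with htseq-count and removed genes under 1 CPM in at least 3 samples, so a gene on in the 2 si-circVAMP3 libraries alone had no chance of a value. The deposited FPKM were computed by the authors with edgeR; whether library sizes were TMM-scaled is not given in the sources used here.

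Here, limma 3.58.1 (R 4.3.3) with a mean-variance trend was fitted to log2(FPKM + 0.1) of genes at 0.5 FPKM or more in at least 2 libraries, two-sided, with Benjamini-Hochberg adjustment over 12423 genes and a threshold of 0.05. An exact permutation test of 3 against 2 cannot go below 0.1. Whole reads were recovered from the FPKM (100% of values within 0.001 of a whole number, up to a factor common to the libraries) for depth and for limma-voom, chosen after seeing the data, as was the centring of 20 GC classes. Symbols, positions and GC came from GENCODE for 13783 genes (99.72%), and promoters of all 10 genes from RefSeq. Named from each list were the called genes, at most the 4 with the smallest adjusted p, and the most abundant gene. Genes and lists were chosen with earlier results of these data known. The fit and the read recovery were tested on simulated data.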

Additional observations from a re-analysis of the deposited data

How the results depend on the processing

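ID3 and BMPR2 kept their direction and call at adjusted p under 0.05 under all 15 alternatives. The change fell short of the study's cutoff of 0.58 in none of them for ID3 and in 4 for BMPR2. It also fell short in 7 of 15 for ID2, in 3 of 15 for ID1 and in 2 of 14 for SMAD7. SMAD5, SMAD6 and BMPR1A were not called under any. SMAD6 and SMAD7 gave no value where a mean of 1 FPKM was required. ID1 was not called after rescaling to TPM (0.65), without the variance trend (0.65) or with the replicate block (0.49). Leaving out each library in turn gave log2 changes of 0.40 to 0.91 for ID1, 0.54 to 0.65 for ID2, 0.37 to 0.48 for SMAD1, 0.75 to 1.03 for SMAD7 and -0.19 to 0.03 for SMAD5, reversed without si-circVAMP3 2. Of genes not called, SMAD9 reversed after TPM rescaling (-0.01) and ranged from -0.16 to 0.17 with libraries left out, TGFB1 from -0.02 to 0.21, TCF3 was -0.03 with the block and ranged from -0.03 to 0.22, and TGFBR1 was 0.00 with GC classes centred.

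Leaving out libraries gave 1276 to 4015 called genes against 3737, 467 to 1984 higher and 804 to 2031 lower, and among list genes 7 to 19 higher and 9 to 20 lower. Without si-circVAMP3 1 or 2 the count was 1304 or 1276 and 35.8% or 37% of calls were higher, against 47.5%; the lone library is then assumed to vary like the controls, and fewer samples enter. Without si-SCR 2 it was 2184. The study's added cutoff of 0.58 left 717. The causes of the other shifts were not tested.

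With the replicate block 3144 genes were called. Since si-SCR 3 is alone in its block, this setting estimated the same changes as leaving si-SCR 3 out. The change was 0.49 for ID1 and 0.75 for ID3 in both, so the settings are not separate checks of size. The numbers were not shown to pair the libraries, and si-SCR 3 has no partner. Deviations from the group means correlated at -0.122 and -0.0249 in the 2 same-numbered pairs. The deviations of the 2 si-circVAMP3 libraries mirror each other, so both values rest on the same difference and cannot decide on pairing. The genes that lost their calls with the block include ID1, FSTL3, TCF12, TGFB3, TGFBR3 and TWSG1. Of the list genes 15 were then higher and 16 lower, against 16 and 21. TCF12 was also not called without the variance trend.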

Other observations

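Among the myogenic markers, the 6 that were lower in si-circVAMP3 cells were MYOG, ACTC1, CHRNG, MYL4, CHRND and FOXO1. ACTC1, the cardiac actin that is also made in embryonic muscle, went from a mean of 327 to 172 FPKM (log2 change -0.92 ± 0.06 SE, limma adjusted p = 4.2e-04). CHRNG and CHRND, subunits of the fetal acetylcholine receptor, went from 13.9 to 9.06 FPKM (-0.61 ± 0.05, limma adjusted p = 7.9e-04) and from 97.4 to 78.4 FPKM (-0.31 ± 0.06, adjusted p = 0.01; 0.0768 without si-circVAMP3 2, from 0.00336 over 15 settings). MYL4, an embryonic myosin light chain, went from 40.4 to 26.6 FPKM (-0.60 ± 0.06, limma adjusted p = 0.0013). DES was the most abundant marker in si-circVAMP3 cells, but was below ACTC1 in si-SCR cells. The means of DES were 277 and 257 FPKM in si-SCR and si-circVAMP3 cells, and DES was not called (-0.11 ± 0.08, limma adjusted p = 0.34). However, its change was -0.18 without si-SCR 3 (limma adjusted p = 0.0272) and -0.20 with GC classes centred (0.024).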
